A study of Homo sapiens with 24 samples.

Results

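The clustered protocadherins are cell adhesion proteins encoded side by side on chromosome 5, and 54 of the 58884 genes in the RNA tables were chosen by symbol as members of the alpha, beta and gamma clusters. The choice used names and no measured value. The alpha cluster has 16 members, of which 15 are protein coding and PCDHA14 is annotated as a pseudogene, the beta cluster has 16 and the gamma cluster has 22. The cells were HEK293T, a human embryonic kidney line, and derivatives of it. In the first table, 2 libraries labelled WT stand beside 2 labelled KO, whose endogenous SETD2, the enzyme that places the histone mark H3K36me3, had been disrupted. In the second table, 2 untreated KO libraries stand beside 2 of KO cells expressing the full-length protein (SETD2 FL) and 2 of KO cells expressing the C-terminal part from residue 1404 to residue 2564 (SETD2 C, labelled N3), all 6 on the KO background. The constructs were tagged and driven by a CMV promoter in transient transfection, and the KO libraries received no plasmid that the labels name. Nothing in the labels says that the libraries came from separate cultures, so a p-value measures the spread between these libraries, which may be technical.

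Each clustered protocadherin has its own promoter and a long first exon for the extracellular domains. In the alpha and gamma clusters that exon is spliced to constant exons shared by the whole cluster, and beta genes have a single coding exon. Neurons choose a few of the promoters at random, with CTCF and cohesin bridging the chosen promoter to a distant enhancer, and the resulting set of proteins lets a neuron tell its own branches from those of others. Promoters that are not chosen carry DNA methylation and repressive chromatin, in which SMCHD1 and SETDB1 are known to take part. The last genes of the alpha and gamma clusters, the C-type genes PCDHAC1, PCDHAC2, PCDHGC3, PCDHGC4 and PCDHGC5, are not under the same random choice as the others.

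On GRCh38, the alpha members span chr5:140786136-141012347, the beta members chr5:141051374-141249365 and the gamma members chr5:141330514-141512977, all on the plus strand. The reference transcripts of 15 alpha members share 2869 bases of constant exon and those of the 22 gamma members share 2177 bases. Words of 75 bases were searched in all transcripts of genes in and near the clusters whose names start with PCDH, pseudogenes included. A median of 54.2% of the words of an alpha transcript also occurred in another such gene, against 9.69% for beta and 46.8% for gamma. A read from the constant exons cannot be given to 1 member by its sequence, so a value for 1 alpha or gamma member partly depends on how RSEM shared such reads. Values for alpha and gamma members are therefore uncertain between members.

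The 250 bases before the RefSeq start (GRCh38.p14) are shown for the 3 members with the highest levels, all of the gamma cluster, and for 1 beta and 1 alpha member that were measured near 0. Capitals mark the best match to the 8-base word that most members of that cluster had in common.
PCDHGC3: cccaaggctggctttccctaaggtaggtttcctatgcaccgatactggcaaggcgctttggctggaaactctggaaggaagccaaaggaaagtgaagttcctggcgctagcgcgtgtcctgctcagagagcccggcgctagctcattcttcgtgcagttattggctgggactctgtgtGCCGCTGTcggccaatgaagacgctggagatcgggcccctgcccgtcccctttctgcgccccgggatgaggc
PCDHGA11: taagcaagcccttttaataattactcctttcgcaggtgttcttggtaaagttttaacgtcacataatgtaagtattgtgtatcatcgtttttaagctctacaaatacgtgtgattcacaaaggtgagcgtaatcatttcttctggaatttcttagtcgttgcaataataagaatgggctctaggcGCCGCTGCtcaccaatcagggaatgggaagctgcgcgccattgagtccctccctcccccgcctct
PCDHGC4: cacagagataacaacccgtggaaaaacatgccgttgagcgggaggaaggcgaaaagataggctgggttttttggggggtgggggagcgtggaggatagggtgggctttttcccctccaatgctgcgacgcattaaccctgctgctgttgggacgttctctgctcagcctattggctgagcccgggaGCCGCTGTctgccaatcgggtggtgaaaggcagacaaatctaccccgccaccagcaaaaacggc
PCDHB5: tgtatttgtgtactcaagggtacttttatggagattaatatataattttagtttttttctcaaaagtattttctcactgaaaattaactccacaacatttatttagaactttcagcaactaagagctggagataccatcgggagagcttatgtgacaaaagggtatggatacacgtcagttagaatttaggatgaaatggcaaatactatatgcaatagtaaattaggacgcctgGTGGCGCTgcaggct
PCDHA2: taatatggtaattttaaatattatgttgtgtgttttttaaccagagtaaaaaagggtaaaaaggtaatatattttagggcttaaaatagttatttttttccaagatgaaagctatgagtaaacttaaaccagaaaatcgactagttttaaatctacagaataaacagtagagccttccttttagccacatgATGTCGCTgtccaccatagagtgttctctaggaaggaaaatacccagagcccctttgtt
These windows are chr5:141475716-141475965, chr5:141420801-141421050, chr5:141484780-141485029, chr5:141134956-141135205 and chr5:140794602-140794851, in the same order and on the plus strand. PCDHGC4 has 2 starts in the table, and the upstream one is shown. Counted from 1 at the word's first base, the match of PCDHGA11 carried the substitution T8C, and the other 4 matches were exact.

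RefSeq held a window for 47 of the 54 members. The alpha word ATGTCGCT was found on either strand of 9 of 13 alpha windows, the beta word GTGGCGCT in 13 of 14 beta windows and the gamma word GCCGCTGT in 11 of 20 gamma windows, counted from 250 bases before to 50 bases after the start. The words were picked because they were the most frequent in these windows, so those counts are fixed by the choice. None of the 3 words occurred in a window of another cluster, and of all 35116 promoters 0.234%, 1.15% and 1.63% held them. Each word contains CGCT, which 12 alpha, 14 beta and 20 gamma windows held, against 70% of all promoters. The printed windows of PCDHGC3 and PCDHGC4 had a GC content of 60.0% and 57.6%, that of PCDHGA11 43.6%, that of PCDHB5 35.2% and that of PCDHA2 32.0%. A match is a description of letters and shows no binding.

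Nearly all of the members were measured at or near 0 in every library. TPM, the level per transcript length relative to the whole library, stayed below 0.5 in all 10 libraries for 49 of the 54 members and below 0.1 for 38. PCDHA9 and PCDHB1 were listed at 0 throughout, and 16 members were above 0 in every library. At a TPM of at least 0.5 in both libraries of a group, no alpha and no beta member was detected in any group, while 2 gamma members were detected in WT and 3 in every other group. The difference is PCDHGC4, near that limit at a mean of 0.44 TPM in WT. At a TPM of at least 1, the gamma count was 2 in every group. TPM keeps no record of depth, and values are given in steps of 0.01, so a value listed at 0 does not show that a gene was off. TPM cannot tell fewer expressing cells from less RNA in each cell.

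**Figure D1:**
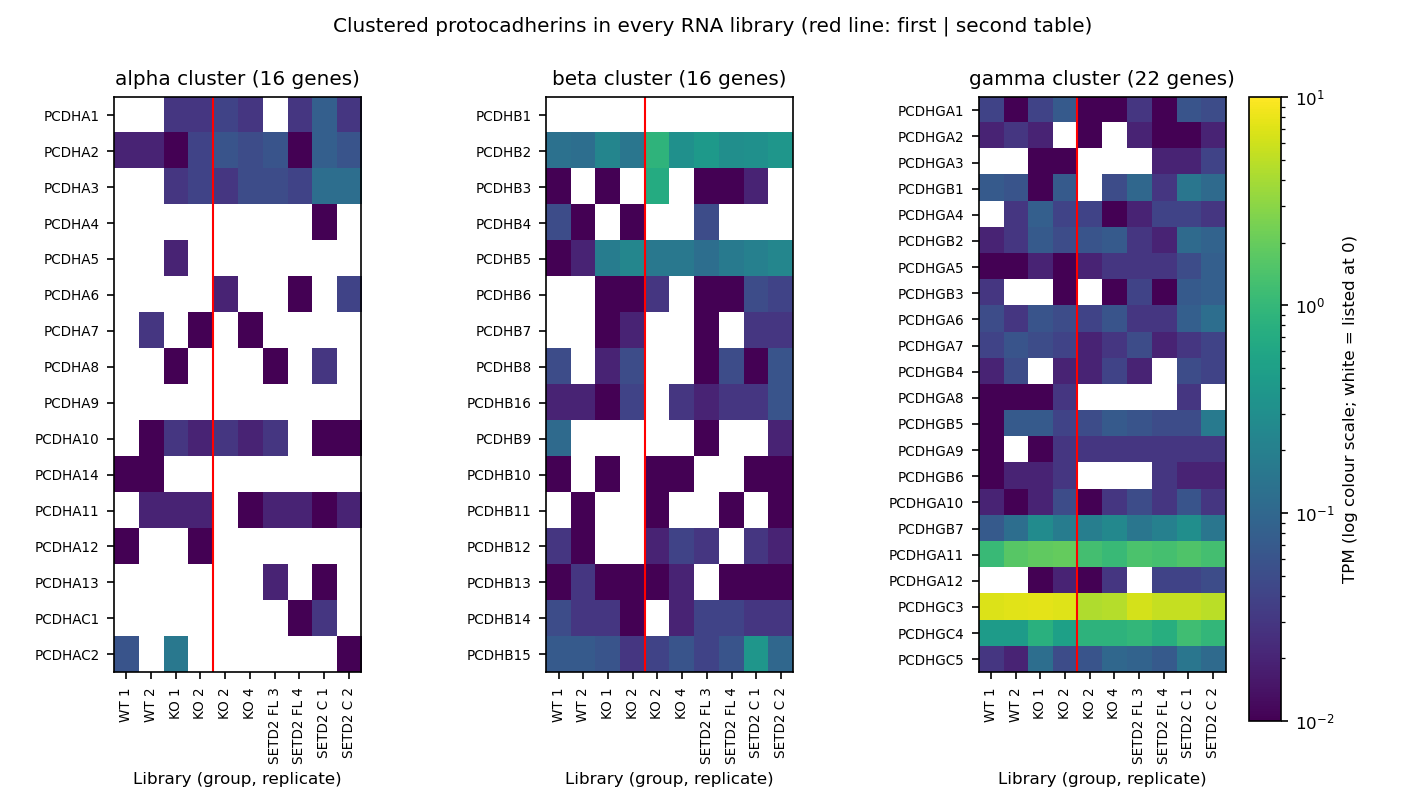
TPM of all 54 members (rows, in order along the chromosome) in the 10 RNA libraries (columns, named by group and replicate), on a log colour scale with values of 0 in white. The rows of PCDHGC3, PCDHGA11 and PCDHGC4 stand out in every library, and PCDHB3 in 1 KO library of the second table.

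Marker genes and SETD2 were compared with the labels. HEK293T markers such as VIM and NEFM summed to 744 to 1638 TPM, while blood, endothelium and hepatocyte markers summed to at most 3.51, 0.27 and 1.56 TPM and the leukocyte gene PTPRC to at most 0.02. Of the fibroblast markers COL1A1 reached 12.1 TPM while COL1A2 and THY1 were at most 0.02, and the 4 neuron markers summed to 8.24 to 14.6 TPM, most of it SYP at 5.77 to 11.3 TPM, with RBFOX3 at 1.71 to 5.34, MAP2 at 0.34 to 2.01 and SNAP25 at 0.10 to 0.31. SETD2 was at 12.6 and 14.8 TPM in the WT libraries, 16.2 and 16.3 in the KO libraries of the first table and 12.0 and 12.2 in those of the second, so its transcript level does not separate the labels WT and KO, and a level per gene does not show whether the alleles are disrupted. The SETD2 FL libraries held 439 and 422 TPM of it, the SETD2 C libraries 1329 and 1264. Between 24306 and 27104 genes were above 0, with the most in the SETD2 C libraries.

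PCDHGC3 (ENSG00000240184) was by far the highest member. This C-type gamma gene is known to be expressed outside the nervous system as well. Its TPM was 6.94 and 7.38 in WT and 7.47 and 7.19 in KO of the first table. The second table had it at 4.43 and 4.64 in KO, 6.37 and 5.38 in SETD2 FL cells and 5.52 and 4.89 in SETD2 C cells. In unscaled TPM, WT and KO overlapped, and both construct groups lay above both KO libraries of their table. After scaling, the SETD2 C group overlapped KO, with a log2 fold change over KO of 0.04 (SE 0.12). PCDHGC3 made up 57.6% to 77.7% of the summed gamma TPM, and 42.2% to 50.6% of the 19892 protein-coding genes had a higher TPM in the same library, so the highest clustered protocadherin was close to the middle of all coding genes.

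PCDHGA11 (ENSG00000253873), an A-type gamma gene, came next. Its TPM was 1.09 and 1.65 in WT and 1.87 and 1.97 in KO of the first table, where the groups did not overlap. In the other table it was 1.26 and 1.08 in KO, 1.40 and 1.3 in SETD2 FL cells and 1.51 and 1.27 in SETD2 C cells. Both construct groups there lay above both KO libraries in unscaled TPM, for SETD2 C only by 1.27 against 1.26. The share of all genes at such levels whose groups do not overlap was not counted. PCDHGC4 (ENSG00000242419), a C-type gene, was at 0.44 and 0.44 TPM in WT and 0.80 and 0.51 in KO of the first table, and it passed the filter there only through the KO libraries. The second table gave 0.86 and 0.87 in KO, 0.96 and 0.75 in SETD2 FL cells and 1.21 and 0.96 in SETD2 C cells. The order PCDHGC3, PCDHGA11, PCDHGC4 held in all 10 libraries, without overlap between PCDHGC3 and the other two, while the lowest PCDHGA11 value, 1.08, lay below the highest PCDHGC4 value, 1.21. The C-type neighbour PCDHGC5 was at 0.02 to 0.15 TPM.

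In the beta cluster, whose single-exon genes share few words with each other, PCDHB2 and PCDHB5 were the highest. PCDHB2 was at 0.13 and 0.12 TPM in WT and 0.23 and 0.15 in KO of the first table, and in the second at 0.89 and 0.32 in KO, 0.42 and 0.30 in SETD2 FL cells and 0.32 and 0.38 in SETD2 C cells. PCDHB3, the gene after PCDHB2, was at 0.70 TPM in that same first KO library of the second table and at most 0.02 in the other 9 libraries. Those values of PCDHB2 and PCDHB3, in the KO library with replicate number 2, made up 85.0% of its beta sum. PCDHB15, the last beta gene, was at 0.38 TPM in 1 SETD2 C library and 0.10 in the other, at 0.04 and 0.06 in KO and again 0.04 and 0.06 with SETD2 FL, and in the first table at 0.07 and 0.07 in WT and 0.06 and 0.03 in KO. Both SETD2 C libraries therefore lay above the other 4 of their table for PCDHB15, while they differed from each other by more than those 4 did.

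PCDHB5 (ENSG00000113209) had a different pattern. It was at 0.01 and 0.02 TPM in WT and at 0.18 and 0.24 in KO of the first table. On the KO background of the second table it was at 0.16 and 0.16 without a construct, 0.12 and 0.17 in SETD2 FL cells and 0.20 and 0.24 in SETD2 C cells. All 8 libraries on the KO background therefore held 0.12 to 0.24 TPM and both WT libraries less. The second table holds no WT library, so the difference itself rests on 2 against 2 libraries of the first table. Whether it came with the loss of SETD2 or with other traits of the KO line was not tested. PCDHB5 failed the filter on low values. Without that filter its log2 fold change, WT over KO, was -0.44 (SE 0.078) with a limma p of 0.00353 and an adjusted p of 0.114, which does not pass. In that fit 2 of 43 members had an unadjusted limma p under 0.05, as did 4224 of all 21362 genes.

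**Figure D2:**
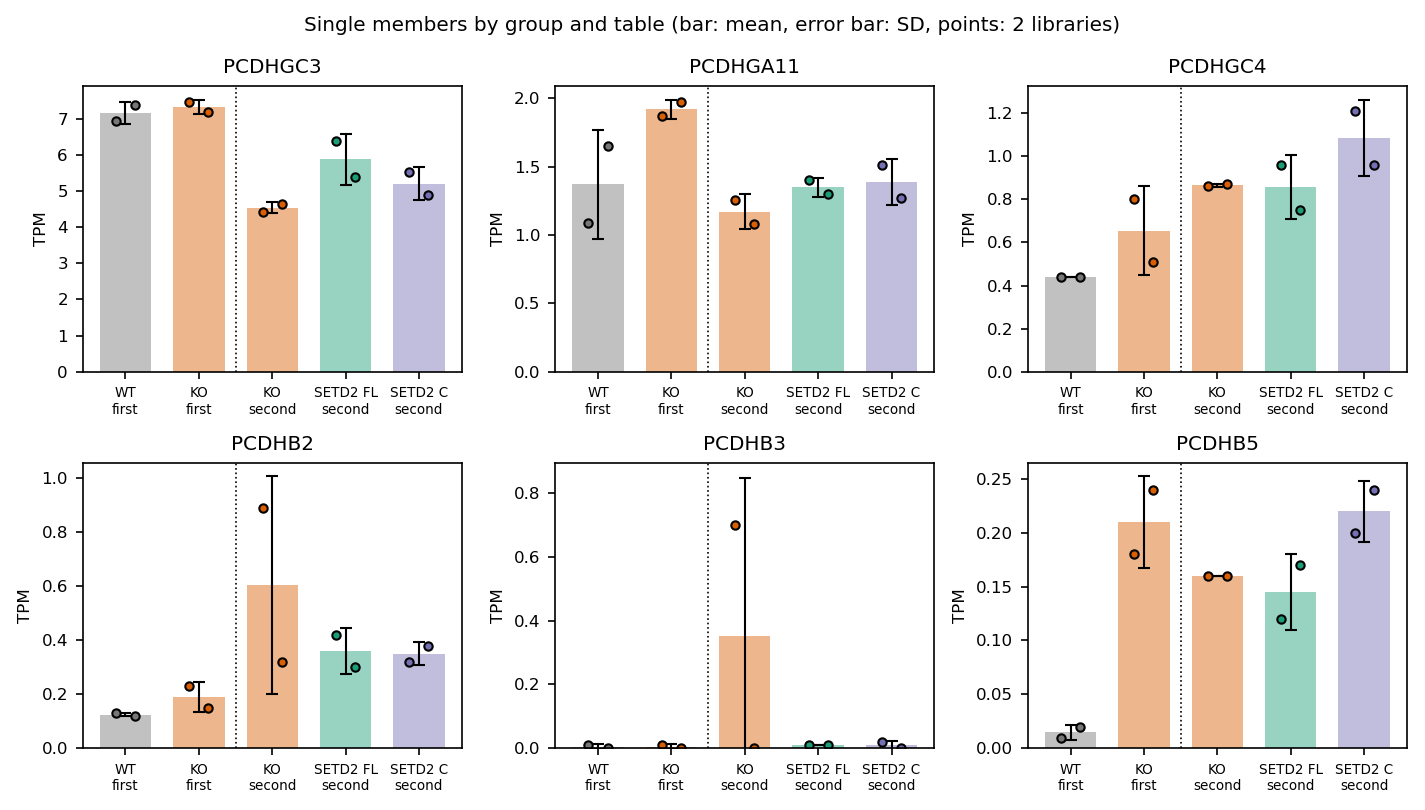
TPM of 3 gamma and 3 beta members by group and table (points, the 2 libraries; bars, their mean; error bars, SD; the dotted line parts the tables). PCDHGC3 lies between 4.43 and 7.47 TPM, PCDHB3 is above 0.02 TPM in 1 library, and PCDHB5 is at most 0.02 TPM in both WT libraries and at least 0.12 TPM elsewhere.

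The alpha cluster held the lowest values. PCDHAC2, a C-type gene, reached 0.16 TPM in 1 KO library and 0.06 in 1 WT library of the first table, with the other library of each group at 0, and in the second table it was at 0.01 TPM in 1 SETD2 C library and 0 in the other 5. PCDHA2 was the only alpha member above 0 in every library, at 0.02 and 0.02 TPM in WT, 0.01 and 0.04 in KO of the first table, 0.06 and 0.05 in KO of the second, 0.06 and 0.01 in SETD2 FL cells and 0.08 and 0.06 in SETD2 C cells, so its groups overlapped within the second table. PCDHA1 was listed at 0 in both WT libraries and at 0.03 in both KO libraries of the first table, then at 0.04 and 0.03 in KO, 0 and 0.03 in SETD2 FL cells and 0.08 and 0.03 in SETD2 C cells. PCDHA3 was listed at 0 in both WT libraries and at 0.03 and 0.04 in KO, and in the second table at 0.03 and 0.05 in KO, 0.05 and 0.04 in SETD2 FL cells and 0.12 and 0.12 in SETD2 C cells. For PCDHA3 the 2 SETD2 C libraries lay above all others, at 0.12 TPM.

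Summed over members, the gamma cluster had 9.48 ± 0.778 TPM in WT and 10.75 ± 0.403 in KO of the first table (SD, n = 2 each). In the second it had 7.265 ± 0.205 in KO, 8.79 ± 0.976 in SETD2 FL cells and 8.985 ± 0.856 in SETD2 C cells. The beta cluster had 0.435 ± 0.163 in WT and 0.575 ± 0.00707 in KO, then 1.265 ± 0.856 in KO of the second table, 0.73 ± 0.0566 in SETD2 FL cells and 1.065 ± 0.0778 in SETD2 C cells. Without the KO library described above, the beta value in KO was 0.66. The alpha cluster had 0.095 ± 0.00707 in WT and 0.24 ± 0.099 in KO, then 0.175 ± 0.00707 in KO of the second table, 0.155 ± 0.0495 in SETD2 FL cells and 0.335 ± 0.0636 in SETD2 C cells. The smallest two-sided p that exact permutation allows with 2 libraries in each group is 0.333, so the sums were not tested.

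**Figure D3:**
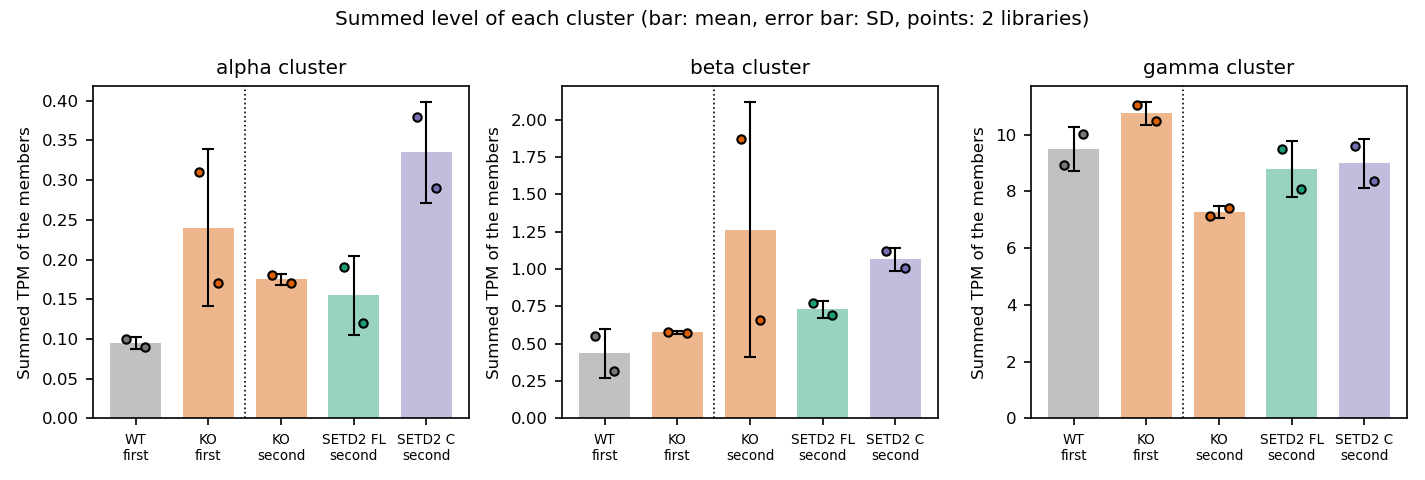
Summed TPM of the alpha, beta and gamma members by group and table (points, the 2 libraries; bars, their mean; error bars, SD; each panel has its own axis). The gamma sums lie between 7.12 and 11.04 TPM, and the spread of the beta sum in KO of the second table, 0.66 and 1.87, comes from 1 library.

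The comparisons ask whether the clustered protocadherins differ between groups of unlike SETD2 state. The construct libraries were also transfected, while the KO libraries are labelled untreated, so construct and transfection cannot be told apart against KO. Between WT and KO, the loss of SETD2 cannot be told apart from other traits of the KO line. The test was limma's, on the log2 of scaled TPM plus 0.5, a scale that understates changes of low genes. A gene was called where it changed at least 2-fold and its p, adjusted by Benjamini-Hochberg over all genes tested, was 0.05 or less. PCDHGC3, PCDHGA11 and PCDHGC4 passed the filter on low values in each table, which asks for 0.5 TPM or more in 2 or more libraries, and the other 51 members did not. No member was called in any of the 4 comparisons. Between WT and KO 1.36% of the genes tested were called, between SETD2 FL and KO 0.0816%, between SETD2 C and KO 4.06% and between SETD2 C and SETD2 FL 3.78%, so with 3 members tested a count of 0 is near the background in every comparison. At an adjusted p of at most 0.05 with no fold threshold the count of members was also 0, where 4.48%, 0.207%, 36.2% and 38.2% of all genes passed, in the same order. At an unadjusted limma p under 0.05 the count was 0 in 3 comparisons and 1, PCDHGC3, between SETD2 FL and KO, where 15.9% of all genes passed. In the other comparisons 24.9% of all genes passed between WT and KO, 47.1% between SETD2 C and KO and 48.8% between SETD2 C and SETD2 FL.

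Between WT and KO, the log2 fold change of PCDHGC3 was 0.09 (SE 0.10, 95% interval -0.15 to 0.33, adjusted p = 0.613). That of PCDHGA11 was -0.29 (SE 0.16, interval -0.67 to 0.08, adjusted p = 0.296) and that of PCDHGC4 was -0.22 (SE 0.21, interval -0.71 to 0.27, adjusted p = 0.549). PCDHGC4 passed the filter of this table only through the KO libraries, where it is higher, so no conclusion is drawn from its test here. The median over all genes tested was 0.01. PCDHGC3 had a lower mean TPM in the libraries labelled WT, 7.16 against 7.33, and a higher scaled level, since the first WT library was divided by 0.879 and the other 3 by 1.04 to 1.06. Without scaling its log2 fold change was -0.03.

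With SETD2 FL, PCDHGC3 had a log2 fold change over KO of 0.32 (SE 0.12, interval 0.04 to 0.60), with a limma p of 0.0317 and an adjusted p of 0.269 that does not pass. With 1 library left out the value ranged from 0.18, without SETD2 FL replicate 3, to 0.46, without SETD2 FL replicate 4, and the unadjusted limma p was under 0.05 in 1 of these 4 fits, at 0.0106. PCDHGA11 had 0.14 (SE 0.15, adjusted p = 0.696) and PCDHGC4 -0.03 (SE 0.17, adjusted p = 0.959), beside a median of all genes of 0.01. For SETD2 C, the log2 fold changes over KO were 0.04 for PCDHGC3 (SE 0.12, adjusted p = 0.803), 0.07 for PCDHGA11 (SE 0.15, adjusted p = 0.745) and 0.11 for PCDHGC4 (SE 0.17, adjusted p = 0.643), with a median of all genes of 0.05. Between SETD2 C and SETD2 FL they were -0.28 for PCDHGC3 (SE 0.12, adjusted p = 0.110), -0.07 for PCDHGA11 (SE 0.15, adjusted p = 0.761) and 0.14 for PCDHGC4 (SE 0.17, adjusted p = 0.553), with a median of all genes of 0.04. The 2 comparisons with KO share their KO libraries. Under quantile normalization the 3 SETD2 C values over KO turned negative, at -0.11, -0.26 and -0.22 in the same order, and the value of PCDHGC3 against SETD2 FL was -0.40 with a limma adjusted p of 0.0313, still under a 2-fold change.

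**Figure D4:**
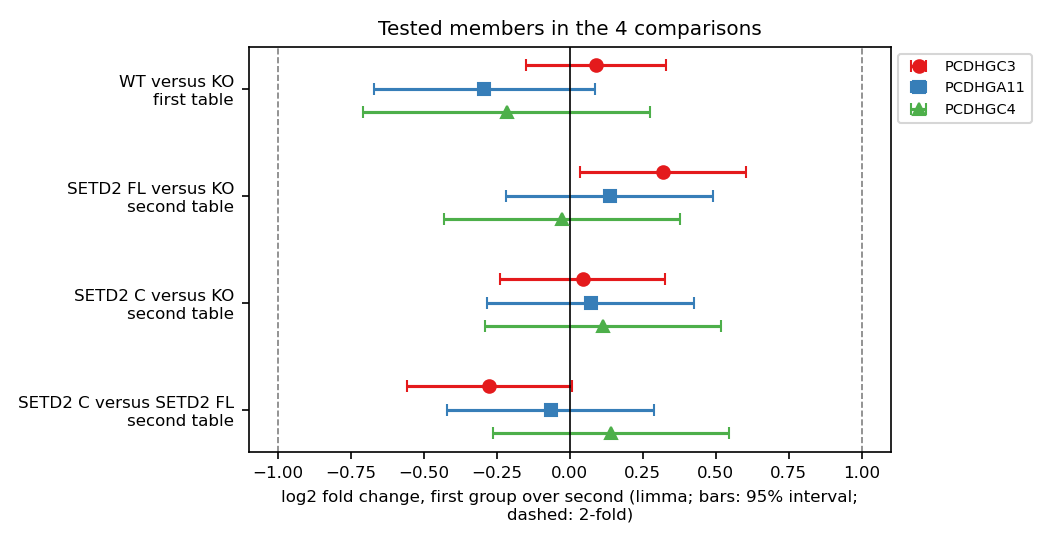
log2 fold change (x axis, first group over second) of the 3 members tested in the 4 comparisons, with 95% intervals from limma and dashed lines at a 2-fold change. All 12 intervals lie between the dashed lines, with bounds from -0.71 to 0.60, on the scale of the test, which understates changes of low genes. The bound of -0.71 is that of PCDHGC4 between WT and KO, a test from which no conclusion is drawn.

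On the log2 scale of the test, the 12 intervals of these members ran from -0.71 to 0.60 at their widest. The bound of -0.71 is that of PCDHGC4 between WT and KO, from which no conclusion is drawn. The next lowest was -0.67, of PCDHGA11 between WT and KO. The scale of the test understates changes of low genes. For a low member such as PCDHGC4, the intervals therefore do not exclude a 2-fold difference in TPM itself.

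For the 44 protein-coding members whose highest TPM in a table was above 0 and below 0.5, the groups were compared by overlap alone, beside all protein-coding genes in the same range. Of the 44, 13 were lower in both WT libraries than in both KO libraries, 29.5%, against 16% of 3878 genes, and 2 were higher, PCDHB12 and PCDHB15, against 13.9%. Those lower in WT were 3 of the alpha, 4 of the beta and 6 of the gamma cluster. Only PCDHB2, PCDHB5 and PCDHGB7 among them held at least 0.1 TPM in both KO libraries, and PCDHGB7, singled out after its values were seen, was at 0.07 and 0.12 TPM in WT and 0.28 and 0.18 in KO. The other 10 rest on differences of hundredths of a TPM. Alpha and gamma values partly depend on how reads were shared between members, so these members are not independent. The difference between the shares was not tested.

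With SETD2 FL, 3 of the 44 lay above KO and 3 below, 6.82% each, against 16.7% and 5.09% of 4164 genes. With SETD2 C, 17 of the 44 lay above KO, 38.6% against 36.4% of all genes in the range, and 1 lay below, PCDHA10, against 2.81%. Against SETD2 FL, 14 lay higher with SETD2 C, 31.8% against 29.8%, and 1 lower, PCDHB14, against 6.08%. With the clusters pooled, the share of low members higher with SETD2 C was thus near that of all coding genes of that range. By cluster the share above KO was uneven. It was 10 of 19 gamma members, 52.6%, 6 of 13 beta members, 46.2%, and 1 of 12 alpha members, PCDHA3, 8.33%. More genes were above 0 in the SETD2 C libraries, 27104 and 26139 against 24691 and 24306 in KO, and the part of this in the members' values was not tested.

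**Figure D5:**
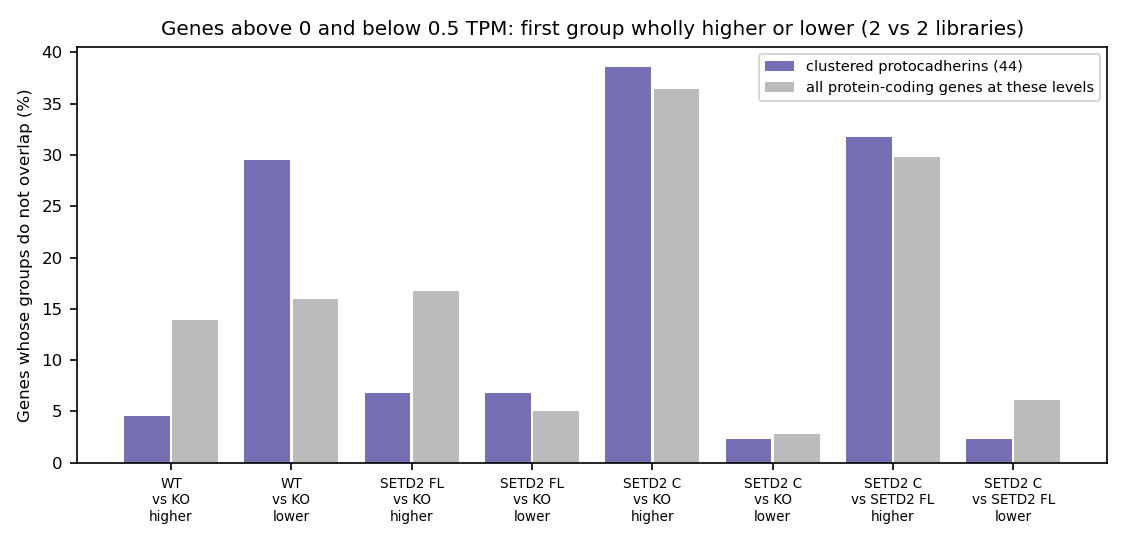
Share (y axis, percent) of the 44 low protocadherins and of all protein-coding genes in the same TPM range whose first group lay wholly above or below the second, 2 libraries against 2. The bars differ most where WT lies below KO, 29.5% against 16%, and are alike where SETD2 C lies above KO, 38.6% against 36.4%. Alpha and gamma members share reads and are not independent, and the differences between bars were not tested.

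Without the filter, limma could be run on 43 members in the first table and 44 in the second, and called none. Of all genes in those fits 0.477% were called between WT and KO, 0.0128% between SETD2 FL and KO, 2.65% between SETD2 C and KO and 2.43% between SETD2 C and SETD2 FL, so a count of 0 is near the background. The median log2 fold change between WT and KO was then -0.04 over 8 alpha, 0.00 over 13 beta and -0.03 over 22 gamma members, beside 0.01 over all genes. Between SETD2 C and KO it was 0.03 over 9 alpha, 0.04 over 14 beta and 0.07 over 21 gamma members, beside 0.06 over all genes. The scale of the test understates changes of low genes, and nearly all of these members are low. These medians therefore do not show whether the members moved more or less than all genes.

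The machinery known to act on the clusters was expressed throughout. CTCF, which binds the promoters, was at 31.7 and 39.1 TPM in WT and 40.3 and 36.4 in KO, and at 19.4 to 22.2 in the second table. Of the 14 genes of CTCF, cohesin and its loaders, none was called in any comparison. At the adjusted p alone 2 were higher and 1, the loader NIPBL, lower with SETD2 C than in KO, and the list's median log2 fold change there was 0.00 beside 0.05 for all genes. By that measure 36.2% of all genes tested passed between SETD2 C and KO, and 38.2% between SETD2 C and SETD2 FL. In the latter comparison 2 of the 14 genes were higher and 5 lower. Without scaling, which moves the median of all genes to 0.18 and 0.16, the counts were 5 higher and 0 lower in both comparisons, so the split of this list depends on the scaling. With scaling CTCF was 1 of the 5 genes lower against SETD2 FL, at a log2 fold change of -0.24 (SE 0.068, limma adjusted p = 0.027). Without scaling the value of CTCF was -0.11 with a limma adjusted p of 0.262, which does not pass. Of the 19 repressors and DNA methylation genes, none was called either, and 4 were higher and 3 lower with SETD2 C than in KO at the adjusted p alone, against 7 and 1 without scaling. TRIM28, the corepressor that recruits SETDB1, was the most abundant gene of that list at 472 to 776 TPM. SMCHD1 was at 12.0 to 20.1 TPM in all libraries.

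Of the repressor list, LRIF1, which encodes a partner of SMCHD1 and of HP1 proteins, passed the adjusted p in 3 comparisons without reaching a 2-fold change, and it was singled out after its values were seen. It was at 8.39 and 9.84 TPM in WT and 5.48 and 5.30 in KO, a log2 fold change of 0.82 (SE 0.093, limma adjusted p = 0.0076). In the second table it was at 2.56 and 2.11 TPM in KO, 4.94 and 5.07 in SETD2 FL cells and 4.68 and 5.08 in SETD2 C cells. The log2 fold changes over KO were 0.95 (SE 0.12, limma adjusted p = 0.037) and 0.80 (SE 0.12, limma adjusted p = 0.002), from shared KO libraries.

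The protocadherins outside the clusters, which are single genes elsewhere in the genome, were tested in the same fits, 7 of 12 in the first table and 9 in the second. PCDH10 rose with SETD2 C, from 13.4 and 14.4 TPM in KO to 35.9 and 35.8, a log2 fold change of 1.20 (SE 0.068, limma adjusted p = 3.45e-05), and stood at 13.5 and 14.2 with SETD2 FL. PCDH8 had 1.71 and 1.05 TPM in the SETD2 C libraries, against 0.22 and 0.18 in KO and 0.24 and 0.11 in SETD2 FL cells. It passed the filter only through the SETD2 C libraries, where it is high, so its test is not given. PCDH10 was also called higher against SETD2 FL, and PCDH1 was called between SETD2 C and KO only without scaling, with a log2 fold change of 1.05 against 0.95 with it. Between WT and KO none of 7 was called, and PCDH9, PCDH10 and PCDH17 were lower in the libraries labelled WT at the adjusted p alone, with log2 fold changes of -0.80, -0.64 and -0.81. Of all genes tested, 4.48% passed that measure between WT and KO.

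With SETD2 C, markers of HEK293T cells and of other cells moved too. KRT8, NEFL and NEFM of the HEK293T list were called higher than in KO, as were LUM of the fibroblast list, at 1.79 and 1.20 TPM against 0.35 and 0.45, and HBA1 of the blood list, at 2.34 and 2.71 TPM against 0 and 0.86. Of all genes tested, 4.06% were called between SETD2 C and KO. LUM passed the filter only through libraries with a construct, being at 0.67 and 0.91 TPM with SETD2 FL. Under quantile normalization LUM had a log2 fold change of 0.69 and was not called. The fibroblast list summed to 14.0 and 16.1 TPM with SETD2 C and 8.06 and 8.11 in KO, with THY1 and COL1A2 at or near 0, and the blood list to 2.56 and 3.51 against 0.17 and 1.09. Their part in the values of PCDH8 and PCDH10 was not tested.

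The genes around the clusters were active at quite other levels. TAF7, a subunit of TFIID that lies between the beta and gamma clusters, was at 52.6 to 68.9 TPM, while SLC25A2, an ornithine carrier gene beside it, was listed at 0 in all libraries. HDAC3, a histone deacetylase gene past the gamma cluster, was at 84.7 to 119 TPM. None of the 11 neighbours tested was called in any comparison. At the adjusted p alone 36.2% of all genes tested passed between SETD2 C and KO. By that measure FCHSD1 was higher and DIAPH1 lower with SETD2 C than in KO, with log2 fold changes of 0.45 and -0.36. Without scaling 5 neighbours were higher and 0 lower, and DIAPH1 had -0.22 with a limma adjusted p of 0.0875. The 5 pseudogenes of the clusters reached at most 0.11 TPM, and 14 of the 19 lncRNAs listed within the span were at 0 in every library. Whether counting used strand is not given in the sources used here, so reads from overlapping antisense genes cannot be told apart, and the highest of these lncRNAs, AC005618.1, reached 0.24 TPM.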

How the data were processed

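RNA was measured in 10 HEK293T libraries, and the ChIP-seq samples were not analysed here. Per the study's methods and the submitters' processing notes, the authors demultiplexed with bcl2fastq 2.18, aligned with STAR 2.6.1c to hg38 with Ensembl 96 gene models and estimated levels with RSEM 1.3.0. The deposited values are TPM in 2 tables made separately, so tests were run only within a table. TPM sums to the same total in each library, so the depth of each sample, and with it any counting interval, is unknown, and 2 libraries a group limit the precision. The authors tested counts with edgeR, and those counts were not used here.

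Members were matched by symbol. Gene types and positions came from GENCODE 44 on GRCh38, where 58472 genes were found by identifier and 31 by symbol, and 381 were not found. Each library was divided by the median of its ratios to the genes' geometric means, taken over coding and lncRNA genes that reached 1 TPM in all its table's libraries, and log2(scaled TPM + 0.5) was fitted with limma 3.58.1 in R 4.3.3 (eBayes with trend). Genes of these types that reached 0.5 TPM in 2 or more libraries were tested, 14746 in the first table and 15933 in the second, whose 6 libraries shared a fit. Called means a change of 2-fold or more with a Benjamini-Hochberg adjusted p of 0.05 or less. The procedure was tested on simulated data. Positions, exons and 75-base words came from the reference transcripts, and upstream windows from RefSeq, GRCh38.p14.

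Values in every library were given for members with a mean TPM of at least 1, for the 3 highest of each cluster in either table and for any with an adjusted p of at most 0.05. Genes of other lists were named where called or among the most abundant, and other genes named were chosen after their values were seen. The members and lists were chosen with earlier results of these data known. The alternatives are listed with their effects at the end, and leaving 1 KO library out of the beta sum was added after seeing the data.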

Additional observations from a re-analysis of the deposited data

How the results depend on the processing

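No member was called, a count of 0, under any of the 56 alternatives over the 4 comparisons. These were the adjusted p alone, pseudocounts of 0.1 and 1, no filter, a minimum of 1 TPM in all libraries, no scaling, quantile normalization, all gene types, eBayes without a trend, only the 4 libraries compared, the replicate block and each library left out. Of 150 alternative log2 fold changes of PCDHGC3, PCDHGA11 and PCDHGC4, 138 kept their direction, none was called and 12 changed sign, all of values that did not pass the test. Under quantile normalization PCDHGC3, PCDHGC4 and PCDHGA11 had -0.11, -0.22 and -0.26 between SETD2 C and KO, and PCDHGC4 -0.15 between SETD2 C and SETD2 FL. Without scaling PCDHGC3 had -0.032 between WT and KO and PCDHGA11 0.0285 between SETD2 C and SETD2 FL. With 1 library left out, PCDHGC4 between SETD2 FL and KO ranged from -0.16 to 0.10, and between SETD2 C and KO PCDHGC3 ranged from -0.0392 to 0.13, PCDHGC4 from -0.0014 to 0.23 and PCDHGA11 from -0.0218 to 0.16. PCDHGA11 between SETD2 C and SETD2 FL then ranged from -0.16 to 0.0274. The signs changed without SETD2 FL replicate 4 for PCDHGC4, without SETD2 C replicate 1 for the 3 values between SETD2 C and KO, without KO replicate 4 for PCDHGA11 there, at -0.0037, and without SETD2 C replicate 2 for PCDHGA11 between SETD2 C and SETD2 FL. The cause of these changes was not tested. PCDHGC4 did not pass the filter between WT and KO without either KO library, nor in any comparison at a minimum of 1 TPM in all libraries. Adjusted p of the 3 members ranged from 0.0313, for PCDHGC3 between SETD2 C and SETD2 FL under quantile normalization, to 0.997.

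At a TPM of at least 0.1 as detected, 1 beta member was detected in both libraries of WT, 2 in KO of each table and with SETD2 FL, and 3 with SETD2 C, where 1 alpha and 6 gamma members were detected too. The beta sum in KO of the second table was 1.265 with both libraries and 0.66 without the KO library of replicate number 2.

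Over all genes, calls ranged over the alternatives from 83 to 661 between WT and KO (200 in the chosen fit), 2 to 33 between SETD2 FL and KO (13), 301 to 5764 between SETD2 C and KO (647) and 308 to 6087 between SETD2 C and SETD2 FL (603), the highest each time with the adjusted p alone. Quantile normalization moved the split of higher and lower calls between SETD2 C and KO from 597 and 50 to 342 and 130, and between SETD2 C and SETD2 FL from 536 and 67 to 336 and 126. Leaving TPM unscaled moved the median over all genes tested from 0.05 to 0.18 (log2) between SETD2 C and KO, and from 0.01 to -0.11 between WT and KO. Between SETD2 FL and KO each library left out lowered the 13 calls to between 2 and 6, and between WT and KO leaving out KO replicate 2 lowered the 200 to 123.

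WT and KO of the first table share the replicate numbers 1 and 2, which the sources do not describe as a pairing, and the deviations of same-numbered libraries had a correlation of 0.147 across 14746 genes. With the replicate block 0 members were called and 214 genes in all, against 200 without it. In the second table the groups compared share fewer than 2 numbers, so no block was fitted there. Depth is unknown, which limits what a value below about 0.1 TPM can show.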

Other observations

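Among the classical cadherins and catenins, the adhesion genes to which protocadherins are related, none of the 7 tested was called in any comparison, apart from CDH3 between SETD2 C and KO without scaling, at 1.05. CTNNB1, which encodes beta-catenin, was at 102 to 144 TPM and CDH2, the N-cadherin gene, at 25.1 to 36.1 TPM. Judged by the adjusted p only, which 36.2% of all genes tested passed, 3 of the 7 were higher with SETD2 C than in KO. Among them was CDH1, the E-cadherin gene, at 6.36 and 6.69 TPM against 3.32 and 3.65 (log2 fold change 0.68, SE 0.16, limma adjusted p = 0.0126). CDH1 and CDH3 were singled out after their values were seen, and CDH3 was at 2.76 and 2.93 TPM against 0.98 and 1.26 (log2 fold change 0.93, SE 0.18, limma adjusted p = 0.0061).

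Among 17 cytoplasmic partners of protocadherins, such as kinases and subunits of the WAVE complex, none was called either. RHOA, the most abundant, was at 332 to 427 TPM. With SETD2 C, 2 were higher and 1 lower than in KO at the adjusted p alone, which 36.2% of all genes tested passed. The list's median log2 fold change was 0.10 beside 0.05 for all genes tested. Without scaling 9 were higher and 0 lower.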
